A study of Arabidopsis thaliana with 144 samples.

Results

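Gene expression at low against high phosphate (Pi) was compared in 24 libraries of the Arabidopsis thaliana mutant phf1 grown with a bacterial synthetic community (SynCom), 1 of 6 such arms of 24 libraries that make up the series (3 genotypes, each with and without bacteria). The libraries were chosen by their labels alone: genotype phf1, bacteria present, and any of the 3 pre-treatments, with 12 libraries at low Pi and 12 at high Pi. For the first 7 days the medium held Pi at 5 µM (-P) or at 1 mM (+P), or phosphite in place of Pi at 1 mM (+Phi), a relative of Pi that roots import but cannot use as a nutrient. The seedlings then grew 12 days with the SynCom, without sucrose, at 50 µM Pi (low Pi) or at 625 µM Pi (high Pi), and RNA was taken from whole seedlings. Each pre-treatment and Pi level had 4 libraries, 2 from each of 2 independent experiments, here called A and B. The design text describes the 4 as biological replicates, and p-values measure the spread between these libraries. Both Pi levels share the mutation, the SynCom and the medium, and the labels name no allele of phf1. For contrast, 3 other arms with the same pre-treatments and Pi levels were used, each with 24 libraries: wild-type Col-0 with SynCom, phf1 without bacteria, and the double mutant phr1 phl1 with SynCom.

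Pi is taken up by roots through transporters of the PHT1 family, and plants short of it switch on a defined set of genes. The MYB transcription factor PHR1 and its relative PHL1 bind a short promoter element, and SPX proteins hold them back while Pi is plentiful. PHF1 works in the endoplasmic reticulum, where it lets PHT1 proteins leave for the plasma membrane, so phf1 plants take up less Pi and are known for carrying a part of the starvation programme in medium that is rich in Pi. The programme raises Pi uptake, frees Pi from organic compounds, and replaces membrane phospholipids with lipids that hold no phosphorus.

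The 24 libraries held 1.52 M to 6.35 M counts each (M, mega), with medians of 3.83 M at low Pi and 4.42 M at high Pi, and 19978 to 21522 genes with a count. Levels are given in CPM, the count divided by the library size in M, with library sizes scaled by the trimmed mean of M-values (TMM). In experiment A, 2 high-Pi libraries stood apart in PHL1 (AT5G29000): replicate A2 after -P had 74.3 CPM and replicate A1 after +Phi 31.5 CPM, against 12.0 to 16.1 CPM in the other libraries of those 2 groups. Over whole arms PHL1 spanned 16.7 to 134 CPM in phr1 phl1 with SynCom and 8.79 to 17.3 CPM in Col-0 with SynCom, so these 2 values lie in the range of the double mutant. PHR1 was 53.1 CPM in the A2 library and 49.0 CPM in the A1 library, against 11.3 to 76.9 CPM in phr1 phl1 (median 30.5) and 44.8 to 91.7 CPM in Col-0. The 76.9 CPM came from 1 phr1 phl1 library, replicate A1 at high Pi after +P, and the next highest had 40.4 CPM. In PHR1 the 2 libraries thus lay above the rest of the double mutant and in the range of Col-0. Whether the 2 libraries hold RNA of another genotype was not tested. Both were kept under their labels, and results were repeated without them. PHL1 had 9.39 to 14.2 CPM at low Pi (median 11.2) and 11.7 to 74.4 CPM at high Pi (median 13.8), a log2 difference of -0.67 ± 0.24 (standard error) with an adjusted p of 0.0268 in edgeR's quasi-likelihood test; leaving out the low-Pi library A2 after -P, or the high-Pi library A1 after +Phi, ended that call.

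PHF1 (AT3G52190), the gene this genotype carries a lesion in, was counted in every library, so its transcript level does not check the label. It stood at 19.1 to 61.9 CPM at low Pi (median 30.8) and at 7.57 to 20.4 CPM at high Pi (median 11.3). The groups overlapped between 19.1 and 20.4 CPM. The log2 difference was 1.46 ± 0.15 (edgeR, adjusted p = 1.2e-07), with 1.46 in experiment A and 1.46 in experiment B. PHR1 (AT4G28610) was lower, at 39.3 to 63.0 CPM at low Pi (median 51.1) against 49.1 to 89.2 CPM at high Pi (median 66.6), with overlapping groups (log2 difference -0.42 ± 0.09, edgeR adjusted p = 0.000742).

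Low Pi changed a large part of the transcriptome. Of 18387 genes tested in one model with experiment and pre-treatment as blocks, 7942 differed between low and high Pi at an adjusted p under 0.05 (43.2%), 3994 of them higher at low Pi (21.7%) and 3948 lower (21.5%). These shares are the background for the counts by gene list below. The larger changes lay on the higher side: 963 genes were higher by a log2 difference of at least 1, and 430 were lower by as much. Of the genes called, 7608 had the same direction in both experiments and in all 3 pre-treatments. The CPM of the Pi levels did not overlap for 196 of the 18387 genes tested. Fitted in experiment A alone, 2110 of 18567 genes were called (11.4%), 1196 higher and 914 lower. Fitted in B alone, 6868 of 18233 were called (37.7%), 3574 higher and 3294 lower. List counts in A alone and B alone below stand beside these unequal shares. Without the 2 high-Pi libraries in doubt 7337 genes were called, 6952 of them among the 7942. In whole-seedling RNA, fewer cells of a type and less RNA per cell cannot be told apart. The summed level of 25 photosynthesis genes, which mark shoot tissue, was 50922 to 108815 CPM at low Pi (median 89239.6) and 60062 to 131229 CPM at high Pi (median 83502). The summed level of the root hair list was 307 to 805 CPM at low Pi (median 490) and 92.7 to 456 CPM at high Pi (median 231), and its part in the results below was not tested.

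**Figure D1:**
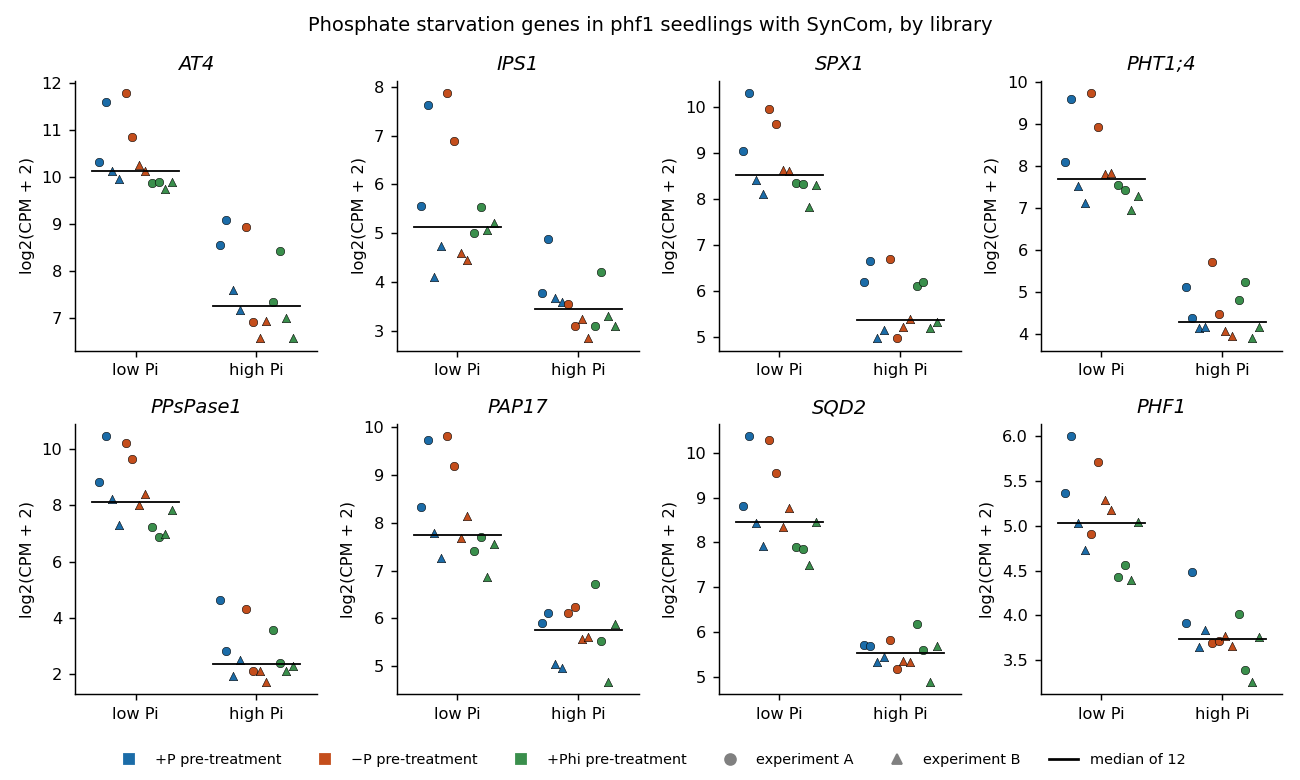
Levels of 8 Pi-responsive genes in every phf1 SynCom library, low Pi left of high Pi, as log2(CPM + 2). Circles are experiment A, triangles experiment B, colours the pre-treatments, and black lines the medians of 12 libraries. SPX1, PHT1;4, PPsPase1, PAP17 and SQD2 separate the Pi levels with no overlap, whereas IPS1 and PHF1 overlap at the margin.

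The switch between a low and a high Pi programme involves non-coding RNAs that bind the microRNA miR399. miR399 directs cleavage of the mRNA of PHO2, an enzyme that marks Pi transport proteins for degradation, and the RNAs IPS1 and AT4 hold a near match to miR399 with a bulge that blocks cleavage. The mature miR399b and the matching stretches of both RNAs are shown because IPS1 and AT4 are the genes whose Pi response differs most clearly between phf1 and Col-0 below. Sequences are from the RefSeq annotation of build TAIR10.1. Capitals mark the seed (bases 2 to 8) in miR399b and the 3 unpaired middle bases in IPS1 and AT4.
MIR399b (chr1:23345387-23345407, minus strand): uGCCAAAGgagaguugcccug
IPS1 (chr3:3051224-3051247, plus strand): uugggcaacuuCUAuccuuuggca
AT4 (chr5:895149-895172, plus strand): uugggcaacuuCGAuccuuuggca
Of the 21 bases of miR399b, 18 pair with each RNA, and these letters differ between IPS1 and AT4 only in the middle bases. MIR399a, c, d, e and f are annotated with a mature form of the same seed. Levels of the MIR399 genes were not analysed here.

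Both mimics, which keep miR399 from PHO2, rose at low Pi. AT4 (AT5G03545) had 852 to 3530.2 CPM at low Pi (median 1116) and 92.0 to 537 CPM at high Pi (median 151), so every low-Pi library was above every high-Pi library. Its log2 difference was 2.77 ± 0.23 (edgeR, adjusted p = 2.66e-09), with 2.5 in experiment A and 3.05 in B. IPS1 (AT3G09922) had 15.2 to 232 CPM at low Pi (median 33.2) and 5.15 to 27.6 CPM at high Pi (median 8.82), and the groups overlapped. Its difference was 2.4 ± 0.34 (edgeR, adjusted p = 6.77e-06), with 3.02 in A and 1.69 in B. PHO2, the miR399 target, was lower, with 72.3 to 159 CPM at low Pi (median 137) and 112 to 363 CPM at high Pi (median 183), a difference of -0.72 ± 0.17 (edgeR, adjusted p = 0.00117).

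The SPX genes, whose proteins sense inositol pyrophosphates and restrain PHR1, split by member. SPX1 (AT5G20150) had 225 to 1248 CPM at low Pi (median 363) and 29.2 to 101 CPM at high Pi (median 39.1), with no overlap and a difference of 3.17 ± 0.20 (edgeR, adjusted p = 2.59e-11). SPX3 (AT2G45130) had 14.9 to 256 CPM at low Pi (median 35.4) and 0 to 2.72 CPM at high Pi (median 0.256), again with no overlap (6.27 ± 0.41). SPX2 (AT2G26660) had 50.9 to 136 CPM at low Pi and 18.8 to 37.5 CPM at high Pi (1.44 ± 0.13, no overlap), while SPX4 was lower by a log2 difference of -0.74. NLA (AT1G02860), a ubiquitin ligase that removes PHT1 proteins, moved the other way, with 10.3 to 20.0 CPM at low Pi (median 16.1) and 19.9 to 57.4 CPM at high Pi (median 42.5), the groups touching at one end (-1.30 ± 0.14, edgeR adjusted p = 1.82e-07). Of 23 Pi sensing and signalling genes tested, of a list of 25, 7 were higher and 11 lower, with a median log2 difference of -0.25 beside -0.01 over all genes tested. The inositol phosphate kinases ITPK1 (0.15) and IPK1 (-0.18) and the root oxidase gene LPR2 (-0.23) did not pass.

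Pi transport genes were higher as a group: 17 of 21 tested, of a list of 22, were higher and 1 lower, beside 21.7% and 21.5% over all genes, with a median log2 difference of 1.46. PHT1;4 (AT2G38940), a plasma membrane Pi importer, had 121 to 848 CPM at low Pi (median 204) and 12.8 to 50.6 CPM at high Pi (median 17.3), with no overlap (3.65 ± 0.22, edgeR adjusted p = 1.63e-11). PHO1;H1 (AT1G68740), a relative of the Pi exporter PHO1, had 31.2 to 132 CPM at low Pi (median 57.7) and 1.25 to 7.79 CPM at high Pi (median 2.70), with no overlap (4.14 ± 0.25, edgeR adjusted p = 1.08e-11). G3Pp1 (AT3G47420), a glycerol-3-phosphate permease family member, had 171 to 746 CPM at low Pi (median 312) and 26.8 to 107 CPM at high Pi (median 50.4), also without overlap (2.60 ± 0.18). Among the root importers, the log2 difference was 4.09 ± 0.30 for PHT1;2, 4.39 ± 0.39 for PHT1;8 and 2.73 ± 0.26 for PHT1;9. PHT1;1, PHT1;2 and PHT1;3 are near-identical copies, so their counts may be shared among them. PHT1;7 had 202 counts over the low-Pi libraries and 0 over the high-Pi ones, and the exact 95% interval of the ratio of CPM starts at 63.8. PHO1 (AT3G23430), which loads Pi into the xylem, had 117 to 222 CPM at low Pi (median 192) and 122 to 244 CPM at high Pi (median 180) and did not pass, with overlapping groups (0.12). PHT4;1 (0.07) and the PHO1 relative AT1G69480 (0.80, edgeR adjusted p = 0.0558) did not pass either, and the 1 lower member was AT4G22990 (-0.68), a vacuolar Pi transporter relative.

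Genes that release Pi from organic and condensed forms gave the widest differences. Of 22 scavenging genes tested, 18 were higher and 0 lower, with a median log2 difference of 2.16. PECP1 (AT1G17710), a phosphatase for phosphoethanolamine and phosphocholine, had 74.7 to 1081 CPM at low Pi (median 152) and 0.526 to 9.73 CPM at high Pi (median 2.29), with no overlap (6.54 ± 0.35, edgeR adjusted p = 1.63e-12). PPsPase1 (AT1G73010), a pyrophosphatase, had 114 to 1379.7 CPM at low Pi (median 272) and 1.36 to 22.7 CPM at high Pi (median 3.12), with no overlap (6.11 ± 0.39, edgeR adjusted p = 2.59e-11). The secreted acid phosphatase PAP17 (AT3G17790) had 114 to 895 CPM at low Pi (median 213) and 23.6 to 104 CPM at high Pi (median 51.7), with no overlap (2.51 ± 0.23, edgeR adjusted p = 2.28e-08).

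Other purple acid phosphatases were almost uncounted at high Pi. PAP14 (AT2G46880) had 1773 counts over the 12 low-Pi libraries and 1 count over the 12 high-Pi libraries, a ratio of CPM of 2083 (95% interval 373 to 82335). PAP5 had 616 counts against 1, a ratio of 724 (129 to 28636), and PAP24 had 744 against 13, a ratio of 67.2 (39.1 to 127). These intervals cover counting error only, and the fitted log2 differences of such genes (9.64 for PAP14) depend on the prior count. OCT1 (AT1G73220), an organic cation transporter known as a Pi starvation marker, had 49.1 to 536 CPM at low Pi (median 159) and 0.673 to 26.9 CPM at high Pi (median 5.28), with no overlap (4.73 ± 0.37). PAP26 (AT5G34850), the main vacuolar acid phosphatase of leaves, had 138 to 221 CPM at low Pi (median 171) and 134 to 187 CPM at high Pi (median 165) and did not pass (0.09, edgeR adjusted p = 0.351), nor did PAP8 (0.28) and the nuclease BFN1 (0.34).

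Membrane lipid remodelling genes were higher in most cases, with a contrast between related enzymes. MGD3 (AT2G11810), a galactolipid synthase of non-photosynthetic membranes, had 31.8 to 396 CPM at low Pi (median 93.8) and 0.963 to 7.49 CPM at high Pi (median 1.57), with no overlap (5.56 ± 0.30, edgeR adjusted p = 1.63e-12). MGD1 (AT4G31780), the galactolipid synthase of the chloroplast envelope, had 57.5 to 161 CPM at low Pi (median 78.9) and 61.4 to 105 CPM at high Pi (median 79.5) and did not pass (0.11, edgeR adjusted p = 0.355). NPC4 (AT3G03530), a phospholipase C, had 20.9 to 255 CPM at low Pi (median 74.3) and 0.673 to 6.61 CPM at high Pi (median 2.76), with no overlap (5.03 ± 0.25, edgeR adjusted p = 7.88e-13). SQD2 (AT5G01220), which completes sulfolipid, had 178 to 1322 CPM at low Pi (median 348) and 27.6 to 70.9 CPM at high Pi (median 43.9), with no overlap (3.32 ± 0.26). The phospholipase D PLDP2 (3.19 ± 0.20), the synthase MGD2 (3.34 ± 0.22), and the glycerophosphodiester phosphodiesterase GDPD3 (4.0 ± 0.31) were higher as well. Of 17 lipid genes tested, of a list of 18, 13 were higher and 2 lower (GDPD2 at -0.75 and PLDP1 at -0.44), with a median of 1.83. The phosphatidate phosphatase PAH2 (-0.14) did not pass.

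The element that PHR1 binds, P1BS, reads GNATATNC and was searched on both strands in the 300 bases before each annotated start in TAIR10.1. It was present before 6.65% of the genes tested (1221 of 18368 with a window). The share was 8.14% of genes higher at low Pi, 11.4% of those higher by a log2 difference of at least 1, 24.6% at 2 or more (42 of 171), and 53.3% at 4 or more (16 of 30). Among genes lower at low Pi it was 5.79%, and among those not called 6.4%. By list, the motif stood before 10 of 22 scavenging genes (45.5%), 7 of 17 lipid genes (41.2%), 5 of 23 sensing genes (21.7%) and 3 of 21 transport genes (14.3%). The shares of the sensing and transport genes were matched in lists of other functions, such as cell division (22.2%), starch and sugar (21.1%), senescence (20.0%), nitrate (18.8%) and jasmonate (16.7%). The windows of 4 genes with wide Pi responses are shown, with the motif in capitals and positions counted in bases before the start.
PAP14 (chr2:19266457-19266756, minus strand): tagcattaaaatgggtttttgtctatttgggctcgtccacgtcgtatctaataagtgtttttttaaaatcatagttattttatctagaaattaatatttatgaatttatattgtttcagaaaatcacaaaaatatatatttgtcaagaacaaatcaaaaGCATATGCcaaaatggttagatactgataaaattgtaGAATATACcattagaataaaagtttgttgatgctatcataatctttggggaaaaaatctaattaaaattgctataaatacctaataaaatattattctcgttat
SPX3 (chr2:18606110-18606409, plus strand): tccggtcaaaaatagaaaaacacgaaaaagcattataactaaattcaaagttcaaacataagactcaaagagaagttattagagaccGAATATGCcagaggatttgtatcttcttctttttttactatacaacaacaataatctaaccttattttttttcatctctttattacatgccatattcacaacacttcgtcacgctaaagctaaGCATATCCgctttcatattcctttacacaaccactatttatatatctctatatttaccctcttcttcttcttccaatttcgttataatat
PPsPase1 (chr1:27466349-27466648, minus strand): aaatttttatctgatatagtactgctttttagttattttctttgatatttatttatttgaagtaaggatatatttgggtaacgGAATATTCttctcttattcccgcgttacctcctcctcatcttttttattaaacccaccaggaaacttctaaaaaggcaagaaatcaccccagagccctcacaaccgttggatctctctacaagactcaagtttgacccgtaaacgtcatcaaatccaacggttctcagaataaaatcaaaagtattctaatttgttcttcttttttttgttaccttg
AT4 (chr5:894282-894581, plus strand): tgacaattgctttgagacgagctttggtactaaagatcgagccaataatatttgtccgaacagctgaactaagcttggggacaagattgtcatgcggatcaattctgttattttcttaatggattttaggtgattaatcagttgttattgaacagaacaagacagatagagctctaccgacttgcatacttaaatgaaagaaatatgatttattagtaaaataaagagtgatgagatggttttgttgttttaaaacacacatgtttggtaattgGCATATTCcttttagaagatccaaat
PAP14 held the motif at 141 and 104 bases, SPX3 at 213 and 90, PPsPase1 at 217 and AT4 at 26. The windows of IPS1, SPX1, PHT1;4, SQD2, PAP17, PECP1 and MGD3 held no match to these letters. A match is a description of the letters and no measure of binding.

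Sulfate genes were higher in part: 10 of 19 tested rose and 0 fell, with a median of 0.31. SULTR1;3 (AT1G22150), a phloem sulfate transporter also known to respond to Pi, had 4.39 to 32.5 CPM at low Pi (median 8.72) and 0 to 0.389 CPM at high Pi (median 0), with no overlap and 560 counts against 3, a ratio of CPM of 219 (95% interval 74.7 to 1067). APR1, a sulfate assimilation reductase, had 33.8 to 177 CPM at low Pi (median 65.2) and 10.3 to 40.5 CPM at high Pi (median 16.4), with overlapping groups (2.17 ± 0.21, edgeR adjusted p = 4.3e-08). The transporters SULTR2;1 (0.31), SULTR1;2 (-0.35) and SULTR4;1 (0.17) did not pass.

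Every aliphatic glucosinolate gene tested was higher at low Pi, 19 of 19, with a median log2 difference of 1.85, while MYB76 was too rarely counted to be tested. These genes make methionine-derived defence compounds of the cabbage family. CYP83A1 (AT4G13770), which oxidises the aldoxime intermediates, had 115 to 233 CPM at low Pi (median 169) and 13.3 to 119 CPM at high Pi (median 35.8), the groups overlapping at the margin (2.05 ± 0.26, edgeR adjusted p = 1.77e-06). CYP79F1 (AT1G16410), which makes the aldoximes, had 10.3 to 59.7 CPM at low Pi (median 42.6) and 0 to 30.6 CPM at high Pi (median 2.28), with overlap (2.91 ± 0.53, edgeR adjusted p = 0.000127). Its difference was 1.58 in experiment A and 5.05 in B. In A alone 11 of the 19 genes passed, and in B alone all 19, beside 11.4% and 37.7% of all genes. The regulator MYB28 (1.42) and the chain elongation genes IPMI1 (2.52 ± 0.26) and BCAT4 (2.34) were among them. Of 10 indole glucosinolate genes, 7 were higher and 1 lower. CYP83B1, the indole counterpart of CYP83A1, had 445 to 1122 CPM at low Pi (median 632) and 226 to 553 CPM at high Pi (median 396), with overlap (0.92 ± 0.12). The methyltransferase gene IGMT1 was lower (-1.16), and the regulators MYB51 (-0.38) and MYB122 (-0.41) did not pass.

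Flavonoid genes were higher too, 9 of 11 tested, with 1 lower, while 11 members of the list were too rarely counted to be tested. CHS (AT5G13930), the entry enzyme of flavonoid synthesis, had 20.1 to 135 CPM at low Pi (median 34.3) and 3.57 to 13.2 CPM at high Pi (median 7.20), with no overlap (2.56 ± 0.26, edgeR adjusted p = 8.1e-08). MYB75 (AT1G56650), an activator of anthocyanin synthesis, had 1.29 to 17.6 CPM at low Pi (median 4.40) and 0 to 1.90 CPM at high Pi (median 0.0945), with overlap (3.76 ± 0.51, edgeR adjusted p = 3.6e-06). The lower member was MYBL2, a repressor of the same pathway, with 33.8 to 158 CPM at low Pi (median 99.3) and 121 to 258 CPM at high Pi (median 163), a difference of -0.79.

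**Figure D2:**
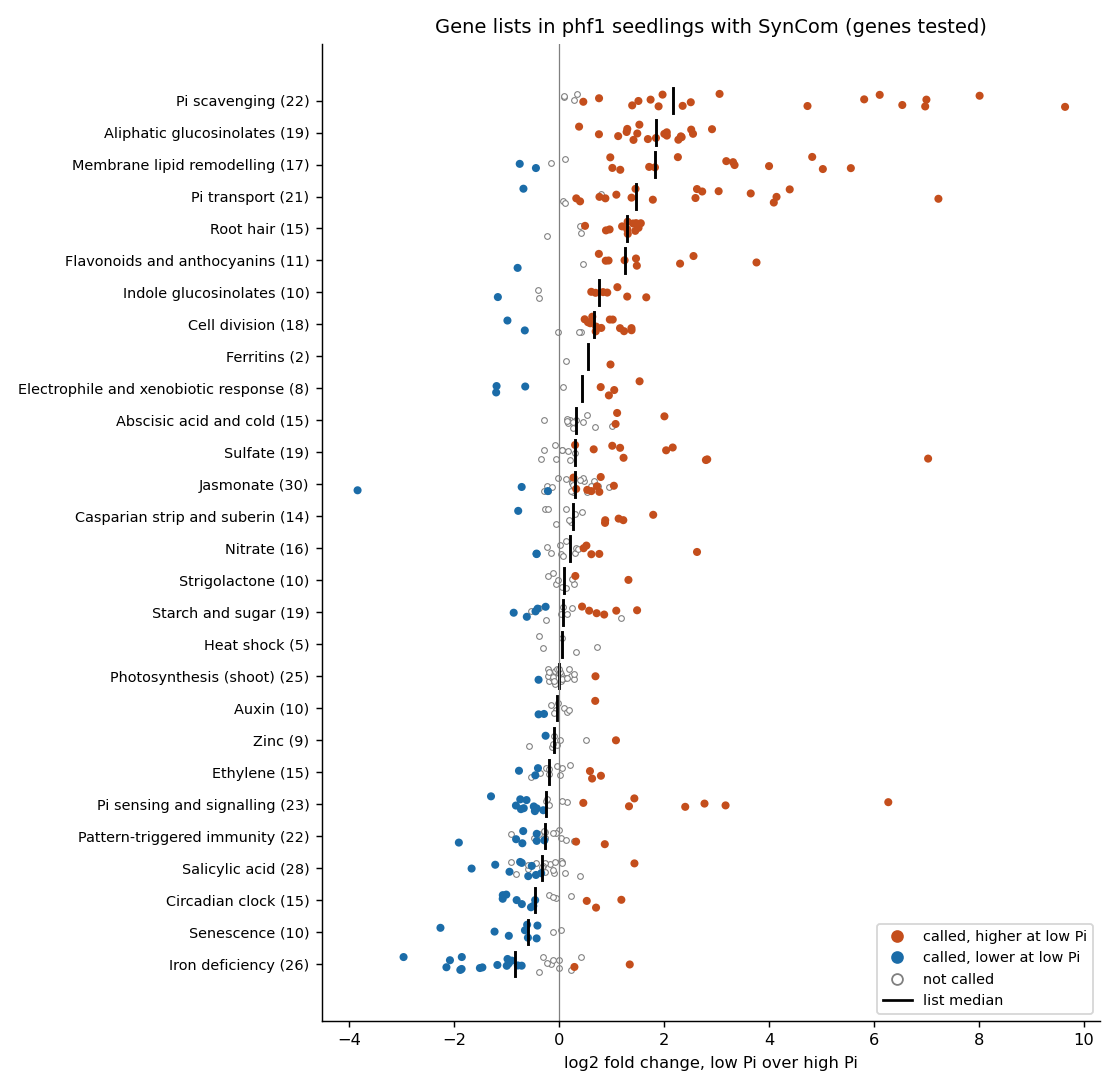
Log2 difference, low over high Pi, of every tested member of 28 gene lists in phf1 with SynCom. Filled points passed the test (orange higher, blue lower), open points did not, and lists are ordered by their median. Scavenging, aliphatic glucosinolate and lipid genes lie at the high end, with iron deficiency and senescence genes at the low end.

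Iron deficiency genes were lower at low Pi: 15 of 26 tested were lower and 2 higher, with a median of -0.84. BHLH38 (AT3G56970), a transcription factor of the iron deficiency response, had 0.425 to 13.0 CPM at low Pi (median 1.37) and 0.505 to 43.6 CPM at high Pi (median 8.17), with overlap (-1.85 ± 0.33, edgeR adjusted p = 8.65e-05). Within experiment A it had 1.42 to 13.0 CPM at low Pi and 14.6 to 43.6 CPM at high Pi, with no overlap. Within B it was near the floor at both levels, 0.425 to 1.32 CPM at low Pi and 0.505 to 1.69 CPM at high Pi. BTS (AT3G18290), a ubiquitin ligase that limits the iron response, had 73.9 to 213 CPM at low Pi and 159 to 537 CPM at high Pi in A, and 81.9 to 108 CPM at low Pi and 117 to 163 CPM at high Pi in B, overlapping in A and not in B (-0.98 ± 0.17 over both, edgeR adjusted p = 9.71e-05). Over the list, experiment A gave a median of -1.27 and experiment B one of -0.19. In A alone 15 members were lower and in B alone 4, beside 914 of 18567 and 3294 of 18233 over all genes. FER3, a plastid ferritin that stores iron, ran the other way, with 20.8 to 40.7 CPM at low Pi (median 29.6) and 4.81 to 26.1 CPM at high Pi (median 14.7), with overlap (0.98 ± 0.18, edgeR adjusted p = 0.000108). The phloem iron transporter gene OPT3 (-0.31) and the coumarin exporter gene ABCG37 (0.24) did not pass.

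Salicylic acid genes were lower in part, 9 of 28 tested against 1 higher (WRKY62, 1.44), beside 21.5% lower and 21.7% higher over all genes, with a median of -0.33. ALD1, needed for the systemic immune signal pipecolic acid, was lower by -1.66 ± 0.42 (edgeR, adjusted p = 0.00259) and the regulator SARD1 by -1.21. None of the 28 was lower in experiment A alone, and 10 were in B alone. Over all genes 914 of 18567 were lower in A alone and 3294 of 18233 in B alone. The marker PR1 (AT2G14610) had 0.773 to 329 CPM at low Pi (median 50.3) and 15.6 to 638 CPM at high Pi (median 113) and did not pass (-0.91 ± 0.54, edgeR adjusted p = 0.178). Pattern-triggered immunity genes gave 7 lower and 2 higher of 22, beside that same background, among them the transcription factor WRKY33 (-0.70 ± 0.20, edgeR adjusted p = 0.00622).

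Of 30 jasmonate genes 8 were higher and 3 lower, beside 21.7% and 21.5% over all genes, so neither count stood clearly above that background, and the count of higher members ranged from 4 to 11 when single libraries were left out. MYC4, a jasmonate transcription factor known to act on glucosinolate genes, had 31.8 to 60.6 CPM at low Pi (median 43.3) and 18.5 to 35.0 CPM at high Pi (median 23.8), with slight overlap (0.79 ± 0.11, edgeR adjusted p = 3.77e-06). The antifungal defensin PDF1.2A had 0.258 to 8.29 CPM at low Pi (median 1.8) and 0.389 to 92.0 CPM at high Pi (median 28.9), with overlap (-3.84 ± 0.55, edgeR adjusted p = 7.87e-06), and its activator ORA59 was lower by -0.71. PDF1.2A, PDF1.2c and PDF1.3 are near-identical, and counts may be shared among them. VSP2, a wound-responsive storage protein, did not pass (0.95, edgeR adjusted p = 0.117).

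Root hair genes were higher, 12 of 15 tested with 0 lower and a median of 1.3. RHS19, a peroxidase of root hair cells, had 54.0 to 188 CPM at low Pi (median 95.2) and 12.8 to 61.4 CPM at high Pi (median 35.7), with overlap (1.52 ± 0.21, edgeR adjusted p = 4.45e-06). RHD6 (AT1G66470), a transcription factor that starts hair formation, had 4.39 to 11.7 CPM at low Pi (median 6.51) and 0.542 to 4.67 CPM at high Pi (median 1.92), with slight overlap (1.47 ± 0.23). RSL4, a later factor that sets hair length, did not pass (-0.23), nor did RHS10 (0.42) and LRL3 (0.40). CYP86B1, a suberin enzyme, had 4.65 to 21.6 CPM at low Pi (median 12.1) and 2.65 to 5.15 CPM at high Pi (median 3.75), with overlap (1.79 ± 0.17, edgeR adjusted p = 2.36e-08). It was 1 of 5 higher among 14 Casparian strip and suberin genes, with 1 lower.

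Cell division genes were higher in 13 of 18 cases and lower in 2, with a median of 0.67. MCM3, a subunit of the replicative helicase, had 8.79 to 19.8 CPM at low Pi (median 12.2) and 2.41 to 10.1 CPM at high Pi (median 4.62), with overlap (1.38 ± 0.20, edgeR adjusted p = 8.38e-06). The sliding clamp PCNA1 (1.38) and the helicase subunits MCM2 (1.24) and MCM5 (1.02) moved with it. CYCB1;1 (0.43), CDKB2;1 (-0.02) and CYCD3;1 (0.38) did not pass. Replication and mitotic genes did not separate. The mitotic genes CYCB1;2 and KNOLLE were among those higher, and the 2 lower were the replication gene CDC6 and TSO2. The count of higher genes was 4 in experiment A alone and 11 in B alone, beside 1196 of 18567 and 3574 of 18233 over all genes.

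Senescence genes were lower, 8 of 10 with 0 higher. SEN1 (AT4G35770), a marker of dark-induced and age-related senescence, had 88.5 to 847 CPM at low Pi (median 363) and 773 to 3146 CPM at high Pi (median 1478), with slight overlap (-2.26 ± 0.28, edgeR adjusted p = 1.62e-06). The chlorophyll breakdown genes PAO (-0.65) and PPH (-0.41) were lower as well. Without the 2 libraries in doubt 6 of the 10 passed. In A alone 2 did and in B alone 7, beside 11.4% and 37.7% of all genes.

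Clock genes moved both ways, 3 of 15 higher and 8 lower. The morning gene LHY had 19.0 to 75.5 CPM at low Pi (median 29.7) and 5.70 to 28.0 CPM at high Pi (median 15.9), with overlap (1.19 ± 0.20). PRR7, expressed later in the day, had 111 to 288 CPM at low Pi (median 219) and 254 to 623 CPM at high Pi (median 405), with overlap (-1.0 ± 0.14, edgeR adjusted p = 6.93e-06), and the evening genes TOC1 (-0.71) and LUX (-0.81) were lower. Starch and sugar genes gave 6 higher and 5 lower of 19, near the 21.7% and 21.5% over all genes. The starch synthase GBSS1, itself under clock control, had 49.1 to 164 CPM at low Pi (median 76.7) and 21.1 to 50.2 CPM at high Pi (median 26.6), with slight overlap (1.49 ± 0.18, edgeR adjusted p = 9.14e-07).

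The remaining lists were small or mixed, and their counts stand beside 21.7% higher and 21.5% lower over all genes. Of 25 photosynthesis genes 1 was higher (RBCS1B, 0.69) and 1 lower (GAPA, -0.39), and the lower count was 2 without the 2 libraries in doubt. When single libraries were left out, the higher count ran from 1 to 3 and the lower from 1 to 2. Nitrate genes gave 5 higher and 2 lower of 16. The widest rise was that of AT3G25790, a repressor of the HRS1 type that links nitrate and Pi signals, with 3.62 to 39.0 CPM at low Pi (median 10.1) and 0.209 to 3.75 CPM at high Pi (median 1.64), overlapping slightly (2.63 ± 0.37). Abscisic acid and cold genes gave 3 higher and 0 lower of 15, a count that ran from 1 to 5 when single libraries were left out. Ethylene genes gave 3 higher and 3 lower of 15, auxin genes 1 and 2 of 10, strigolactone genes 2 and 0 of 10, and zinc genes 1 and 1 of 9. In the ethylene, auxin, strigolactone and zinc lists no count was above the share over all genes. When single libraries were left out, the count of higher strigolactone genes ran from 1 to 3, that of higher zinc genes from 1 to 2 and that of lower zinc genes from 0 to 1. The electrophile and xenobiotic list gave 4 higher, led by the glutathione transferase GSTU25 (1.53), and 3 lower of 8. None of 5 heat shock genes passed (HSP70-4 0.73, HSP90.1 -0.38, ROF2 -0.30). Their summed level at low Pi had a median of 68.6 CPM. After -P it was 706 CPM in A1 and 360 CPM in A2, against 56.6 CPM in B1 and 78.3 CPM in B2.

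The 12 widest increases among genes averaging at least 5 CPM were mostly genes already described: PAP14, PAP5, PAP24, SULTR1;3, PECP1, SPX3 and PPsPase1. The others were the acid phosphatase gene PAP25 (394 counts at low Pi against 2 at high Pi), AT5G17340, AT3G25240, AT2G34210 and AT1G23110. AT5G17340, annotated as a putative membrane lipoprotein, had 881 counts at low Pi against 3 at high Pi, a ratio of CPM of 345 (118 to 1677). AT3G25240, of a family of unknown function, had 9.28 to 117 CPM at low Pi (median 20.6) and 0 to 0.723 CPM at high Pi (median 0.225), with no overlap. AT1G23110 had 16.5 to 128 CPM at low Pi (median 46.5) and 0.168 to 2.73 CPM at high Pi (median 0.617), with no overlap (5.88 ± 0.28, edgeR adjusted p = 4.73e-13). AT2G34210 (chr2:14445938-14450522, plus strand) had 3.88 to 63.5 CPM at low Pi (median 12.8), with 805 counts at low Pi against 6 at high Pi. It lies just downstream of MIR399f (chr2:14444997-14445114) on the same strand, and counts per gene cannot tell the origin of reads that run between neighbours.

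All of the 12 widest decreases overlapped between the Pi levels, as did all but 196 of the 18387 genes tested. AT3G59930, a defensin-like gene, had 0 to 3.61 CPM at low Pi (median 1.42) and 3.11 to 89.4 CPM at high Pi (median 24.8), a difference of -4.12 ± 0.35 (edgeR, adjusted p = 5.69e-09). The defensins PDF1.3 (-3.91), PDF1.2A (-3.84) and PDF1.2c (-3.34) were also among them. THA1, a threonine aldolase, had 1.62 to 71.2 CPM at low Pi (median 6.28) and 24.1 to 281 CPM at high Pi (median 91.7), a difference of -3.19. BCAT-2, a branched-chain amino acid aminotransferase, had 10.4 to 217 CPM at low Pi (median 42.7) and 92.3 to 692 CPM at high Pi (median 347), a difference of -2.68. The coiled-coil gene AT5G23700 (-3.35), BHLH100 (-2.96), AT1G02620 (-2.96), AT2G14247 (-2.62), DIN11 (-2.61) and AT5G14470 (-2.53) complete the set.

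The pre-treatment was compared as a term of its own. Levels at low Pi differed in their medians by pre-treatment: SPX1 had a median of 590 CPM at low Pi after -P, 430 CPM after +P and 316 CPM after +Phi. For PPsPase1 the medians were 565 CPM after -P, 370 CPM after +P and 136 CPM after +Phi, and for NPC4 116, 83.3 and 34.8 CPM in that order. The scavenging list had a median log2 difference between low and high Pi of 2.82 after -P, 2.5 after +P and 1.67 after +Phi. None of these differences in Pi response passed the interaction test.

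The interaction of Pi with pre-treatment passed for 2 of 18387 genes (0.0109%), AT4G28140 and ERF53, both of the ERF/AP2 family of transcription factors that respond to stress. AT4G28140 had a log2 difference of -6.23 ± 1.23 after -P, 3.59 ± 1.04 after +P and 3.22 ± 0.83 after +Phi (edgeR, adjusted p of the interaction = 0.0285). Both genes' pattern rested on experiment B: after -P, AT4G28140 had 0 and 0.658 CPM at low Pi and 39.2 and 46.6 CPM at high Pi. After +P it had 10.9 and 17.0 CPM at low Pi and 0 and 0.285 CPM at high Pi, and after +Phi 35.1 and 34.4 CPM at low Pi and 0.337 and 2.65 CPM at high Pi. In experiment A no library exceeded 2.34 CPM. ERF53 after -P in B had 0.970 and 2.63 CPM at low Pi and 55.7 and 42.3 CPM at high Pi (edgeR, adjusted p = 0.0373), with at most 1.25 CPM in A. Neither gene passed with the replicate block, with a filter of 1 CPM, or without replicate A2, B1 or B2.

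The Pi response differed between experiments for 33 genes (0.179%), 18 higher in B and 15 lower. AT1G52120, a mannose-binding lectin family gene, had 4.2 to 11.2 CPM at low Pi and 0 to 0.263 CPM at high Pi in B, with no overlap. In A it had 12.4 to 24.3 CPM at low Pi and 6.50 to 25.1 CPM at high Pi, and the groups overlapped (difference of the log2 differences 5.36 ± 0.68, edgeR adjusted p = 0.000746). NAS1, which makes the metal chelator nicotianamine, had a log2 difference of 1.69 in B and -0.95 in A (edgeR, adjusted p = 0.0134). The metal transporter gene IRT3 ran the other way, at -1.13 in B and 0.48 in A (edgeR, adjusted p = 0.00831). Of the genes in the lists, NAS1 and the ethylene receptor gene ERS1 passed this test. The salicylic acid, glucosinolate, senescence and cell division genes, which gave unequal numbers of calls in A alone and B alone, did not.

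The Pi response of phf1 was set against that of Col-0, both with SynCom, to ask what the loss of PHF1 changes. It differed for 10 of 18795 genes (0.0532%). The log2 difference between low and high Pi, with its sign, was smaller in phf1 for 8 (0.0426%) and greater for 2 (0.0106%). Of these, 10 of 10 kept their direction in both experiments, which is no separate check because they were called on both together. Fitted within each experiment, 2 genes passed in A, 11 in B and 2 in both. The 8 include both miR399 mimics, SPX1, G3Pp1, PHT1;2 and OCT1, with medians at high Pi that were higher in phf1 and ranges at low Pi that overlapped between the genotypes. AT4 at high Pi had 93.3 to 525 CPM in phf1 (median 150) and 2.83 to 14.8 CPM in Col-0 (median 6.57), with no overlap. At low Pi it had 842 to 3561 CPM in phf1 (median 1105) and 440 to 2630 CPM in Col-0 (median 1079). The Pi response was 2.77 in phf1 and 7.26 in Col-0, a difference of -4.49 ± 0.36 (edgeR, adjusted p = 1.46e-11), with -4.88 in experiment A and -4.18 in B.

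IPS1 at low Pi had 15.0 to 234 CPM in phf1 (median 32.7) and 23.5 to 641 CPM in Col-0 (median 129), overlapping over both experiments but not within B, where it had 15.0 to 34.4 CPM in phf1 and 48.1 to 142 CPM in Col-0. At high Pi IPS1 had 5.25 to 26.9 CPM in phf1 (median 8.76) and 0 to 0.335 CPM in Col-0 (median 0). Over all libraries IPS1 had 2535 counts at low Pi and 504 at high Pi in phf1, a ratio of CPM of 5.91 (95% interval 5.37 to 6.52), and 9278 counts at low Pi and 2 at high Pi in Col-0, a ratio of 3885 (1075 to 32087). Both intervals cover counting error only and leave out the spread between libraries. The edgeR difference was -8.59 ± 0.81 (adjusted p = 1.28e-09), with -8.69 in A and -8.61 in B, and its size depends on the prior count. SPX1 at high Pi had 29.2 to 100.1 CPM in phf1 (median 39.8) and 4.79 to 21.1 CPM in Col-0 (median 10.6), with no overlap. Its difference was -2.13 ± 0.28 (edgeR, adjusted p = 1.43e-05), with -2.39 in A and -1.91 in B.

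PHT1;2 at low Pi had 74.9 to 591 CPM in phf1 (median 151) and 45.8 to 476 CPM in Col-0 (median 71.8), with overlap. PHT1;2 at high Pi had 2.17 to 29.6 CPM in phf1 (median 8.54) and 0 to 1.07 CPM in Col-0 (median 0.468), with no overlap (-3.69 ± 0.62, edgeR adjusted p = 0.00151). OCT1 at high Pi had 0.669 to 26.7 CPM in phf1 (median 5.33) and 0 to 1.85 CPM in Col-0 (median 0.646), with overlap (-2.91 ± 0.57, edgeR adjusted p = 0.0186). G3Pp1 differed by -1.73 ± 0.28, the phosphatase gene PFA-DSP4 by -1.27 ± 0.22 and AT1G08310 by -1.78 ± 0.36. The 2 genes with a higher value in phf1 were AT3G13980 (0.15 in phf1, -0.94 in Col-0) and AT5G06700, a trichome birefringence-like gene (-0.28 in phf1, -0.95 in Col-0). The difference of AT5G06700 was 0.67 ± 0.14 (edgeR, adjusted p = 0.0363). Both genes were lower at low Pi in Col-0 and changed less in phf1. Leaving out the 4 replicates in turn, each in both genotypes, gave 3 to 7 genes. Without the 2 phf1 libraries in doubt 11 genes were called, 9 of them among the 10. The value in phf1 was then greater for 1 gene and smaller for 10.

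**Figure D3:**
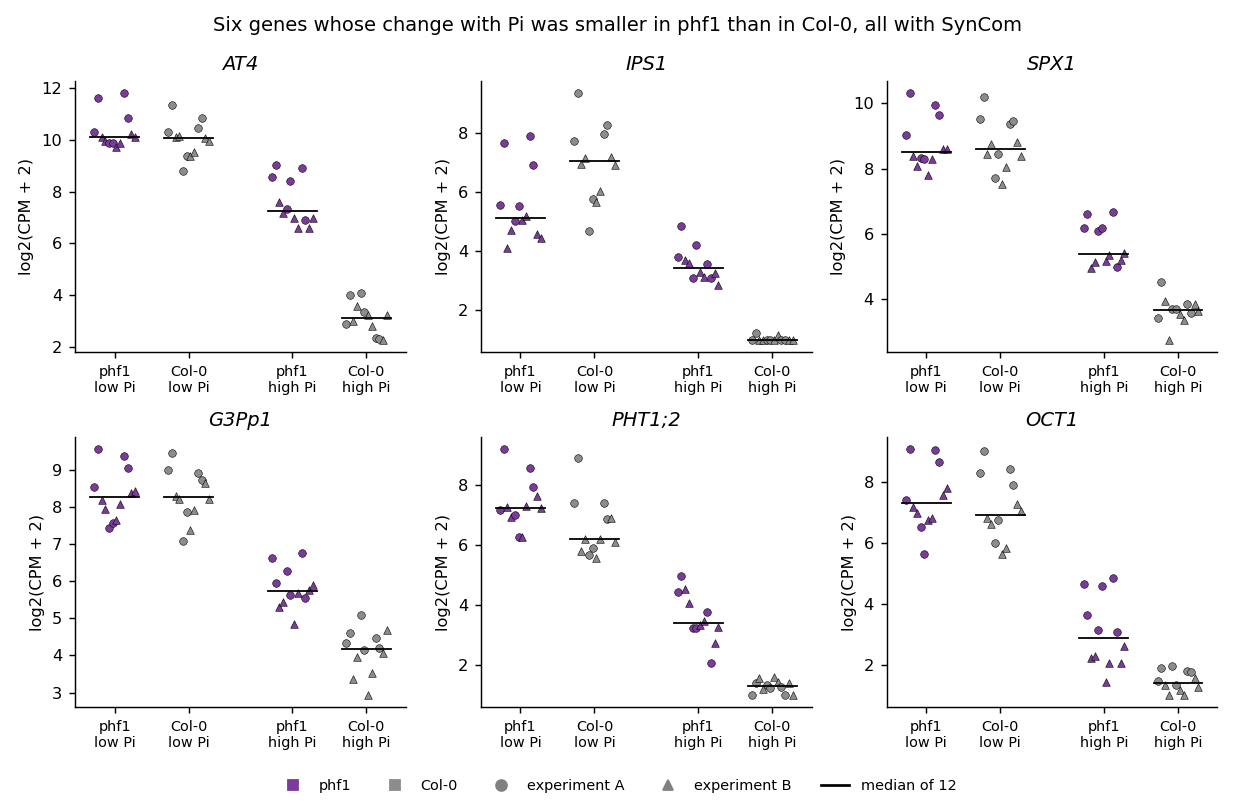
Levels of AT4, IPS1, SPX1, G3Pp1, PHT1;2 and OCT1 as log2(CPM + 2) in phf1 and in Col-0, both with SynCom, each at low and at high Pi, with a point for each library and a line at the median. The low-Pi ranges of the genotypes overlap, while the high-Pi points of phf1 lie above those of Col-0 for AT4, IPS1, SPX1 and PHT1;2.

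The presence of bacteria was the next contrast. The Pi response of phf1 with SynCom differed from that without bacteria for 3338 of 18793 genes (17.8%), with the SynCom value above in 1565 (8.33%) and below in 1773 (9.43%). The log2 difference between low and high Pi was greater with SynCom in 12 of 22 scavenging genes, 12 of 17 lipid genes, 9 of 21 transport genes and 9 of 15 root hair genes. It was smaller for 1 transport gene and none of the others. NPC4 at low Pi had 20.9 to 253 CPM with SynCom (median 74.0) and 7.20 to 69.4 CPM without bacteria (median 25.5). At high Pi it had 0.671 to 6.59 CPM with SynCom (median 2.76) and 4.76 to 19.0 CPM without bacteria (median 8.56). The Pi response was 5.02 with SynCom and 1.49 without bacteria, a difference of 3.53 ± 0.33 (edgeR, adjusted p = 8.27e-10), with 3.65 in experiment A and 3.44 in B.

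PECP1 at low Pi had 74.5 to 1076 CPM with SynCom (median 151) and 5.08 to 269 CPM without bacteria (median 60.7), and at high Pi 0.526 to 9.69 CPM with SynCom (median 2.28) and 2.90 to 25.6 CPM without bacteria (median 7.20). The groups overlapped at each Pi level, and the difference in response was 3.61 ± 0.43 (edgeR, adjusted p = 2.53e-07). AT1G64590, which encodes a Rossmann-fold protein, had 38.3 to 220 CPM at low Pi and 4.81 to 20.0 CPM at high Pi with SynCom, and 5.19 to 102 CPM at low Pi and 16.5 to 43.1 CPM at high Pi without bacteria. Its response was 3.28 with SynCom and 0.01 without bacteria. The latter joins opposite directions, -1.10 in experiment A and 0.92 in B. SPX1 (1.92 ± 0.27), AT4 (1.86 ± 0.29), PHO1;H1 (2.74) and PHF1 itself (1.15) also passed with a wider response under SynCom.

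Iron deficiency genes ran the other way: the response was lower with SynCom for 13 of 26 and above it for 0. BHLH38 at low Pi had 0.423 to 13.0 CPM with SynCom (median 1.36) and 0.965 to 163 CPM without bacteria (median 11.7), with overlap, and at high Pi 0.504 to 43.4 CPM with SynCom (median 8.15) and 0.242 to 23.3 CPM without bacteria (median 6.25). Its difference in response was -3.71 ± 0.45 (edgeR, adjusted p = 3.04e-07). The median difference of the iron list was -1.50 in A and 0.11 in B, and that of the aliphatic glucosinolate list 0.14 in A and 2.49 in B. The scavenging list gave 1.05 in A and 1.63 in B, and the root hair list 0.94 and 0.87. Senescence genes had a lower response with SynCom in 9 of 10 cases, and ASP3, an aspartate aminotransferase, had 77.3 to 142 CPM at low Pi with SynCom and 172 to 263 CPM without bacteria, with no overlap (-0.95 ± 0.12, edgeR adjusted p = 7.08e-07). Between-arm calls were uneven between experiments: 253 genes passed in A alone, 5882 in B alone and 146 in both. Leaving out replicate B1 in both arms left 793 calls, and leaving out B2 left 1077.

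**Figure D4:**
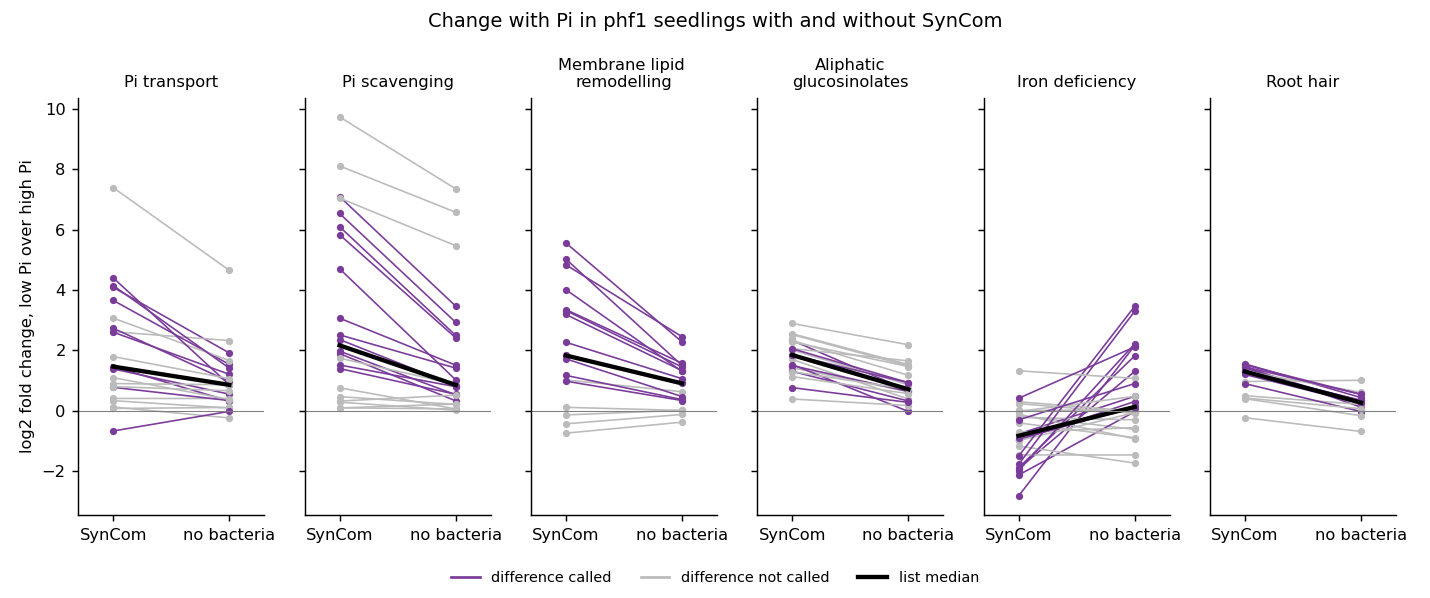
Log2 difference, low over high Pi, of each gene of 6 lists in phf1 with SynCom (left end of each line) and in phf1 without bacteria (right end). Purple lines are genes whose difference between the arms passed the test, grey lines the rest. In scavenging and lipid lists the purple lines fall from left to right, and in the iron list they climb.

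In phr1 phl1 with SynCom, a mutant of both regulators of the Pi programme, 1825 of 18622 genes differed from phf1 in Pi response (9.8%), 959 above in phf1 (5.15%) and 866 below (4.65%). The phr1 phl1 library of replicate A1 at high Pi after +P had 76.9 CPM of PHR1 and 18.9 CPM of PHL1, against medians of 30.5 and 48.7 CPM over that arm, and without it 1418 genes were called, 1357 of them among the 1825. All 4 repeats that left out a replicate in both arms gave fewer calls, 318 to 1094. Without the 2 phf1 libraries in doubt 1524 genes were called, 1423 of them among the 1825. Fitted within each experiment, 39 genes passed in A, 205 in B and 11 in both. The counts in brackets below leave out the phr1 phl1 library of replicate A1 at high Pi after +P. The log2 difference between low and high Pi was greater in phf1 for 10 of 21 transport genes (8 without that library) and 11 of 22 scavenging genes (8). It was also greater for 9 of 17 lipid genes (9), 9 of 19 sulfate genes (6) and 13 of 15 root hair genes (13). For aliphatic glucosinolate genes it was 6 of 19, and 2 without that library. The root hair list ran the other way in phr1 phl1, with a median response of -0.58 (-1.12 in A, -0.23 in B) beside 1.3 in phf1.

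NPC4 at low Pi had 20.4 to 259 CPM in phf1 (median 74.6) and 0.781 to 30.4 CPM in phr1 phl1 (median 2.13), while at high Pi both were low, with medians of 2.75 CPM in phf1 and 2.15 CPM in phr1 phl1. The response was 5.05 in phf1 and 0.39 in phr1 phl1, a difference of 4.66 ± 0.53 (edgeR, adjusted p = 7.66e-07), and 4.46 without the library named above. MGD3 at low Pi had 31.0 to 402 CPM in phf1 (median 94.3) and 2.71 to 44.0 CPM in phr1 phl1 (median 10.1), a difference in response of 3.55 ± 0.52. The chitinase HCHIB at low Pi had 57.3 to 547 CPM in phf1 (median 126) and 5.95 to 62.2 CPM in phr1 phl1 (median 20.2), with a response of 2.06 in phf1 and -0.22 in phr1 phl1. PHO2 had a response of -0.72 in phf1 and 0.71 in phr1 phl1, a difference of -1.43 ± 0.25 (edgeR, adjusted p = 0.00055), and LRX1, a root hair cell wall protein, differed by 2.23 ± 0.46 (edgeR, adjusted p = 0.00229).

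On the lower side, AT3G59930 at low Pi had 0 to 3.67 CPM in phf1 (median 1.41) and 2.55 to 20.3 CPM in phr1 phl1 (median 10.9), a difference in response of -3.50 ± 0.51. SKOR, a potassium channel that loads the xylem, had 0 to 2.13 CPM at low Pi in phf1 (median 0.673) and 1.52 to 18.6 CPM in phr1 phl1 (median 8.67), with overlap, and at high Pi 1.64 to 16.6 CPM in phf1 (median 4.02) and 2.03 to 21.8 CPM in phr1 phl1 (median 7.10). Its difference in response was -2.5 ± 0.42 (edgeR, adjusted p = 0.000269). KTI1, a protease inhibitor, had 43.0 to 293 CPM at low Pi in phf1 (median 100.4) and 139 to 645 CPM in phr1 phl1 (median 352), a difference in response of -1.68 ± 0.27.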

How the data were processed

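RNA was sequenced from poly(A)-selected, unstranded libraries of whole seedlings. The authors deposited whole-number read counts per gene, not normalized, for all 144 libraries. Per the submitters' processing notes, CASAVA 1.8, cutadapt 1.3, TopHat2 2.1.1 and HTSeq 0.6.1p1 were used with build TAIR10. Without strand, reads of overlapping or antisense genes cannot be told apart. Of 27206 genes in the table, 23699 had a count in the 24 libraries and 18387 passed filterByExpr (minimum count 10).

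From these counts, edgeR 4.0.16 in R 4.3.3 (TMM scaling, quasi-likelihood test, Benjamini-Hochberg adjustment over all genes tested, called under 0.05) was fitted with experiment, pre-treatment and Pi. Interaction terms tested differences between pre-treatments and between experiments. Comparisons with another arm used 48 libraries, each arm with its own experiment, pre-treatment and Pi effects, and re-estimated the scaling, so phf1 levels differ slightly there. The code was checked on simulated counts. Alternatives used limma 3.58.1 and DESeq2 1.42.0, other scalings, filters and blocks, and left out libraries. Ratios of summed counts carry exact 95% intervals, which cover counting error only and leave out the spread between libraries.

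Named genes were the genes the genotypes target, 11 fixed markers, up to 12 with the largest change in each direction averaging at least 5 CPM with 1 direction throughout, up to 6 members of each list with the smallest p and up to 3 that did not pass, and up to 8 per direction of each interaction with the list members called there. PHT1;1, PHT1;3, PHT1;7, PHO2, SPX4, AT4G22990, GDPD2, PLDP1, MYB28 and BCAT4 fall outside this rule, and they and the windows printed were chosen after their values were seen. The members and lists were chosen with earlier results of these data known. No 2 libraries of a group held identical counts. Replicate numbers are taken as names only: deviations of same-numbered libraries correlated at -0.066 on average in experiment A and 0.010 in B. Sequences come from the RefSeq annotation of TAIR10.1, and the count table holds no coordinates.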

Additional observations from a re-analysis of the deposited data

Results flagged for a closer look

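Of 150 groups of 4 libraries examined over 25 quantities, 22 held a library far from the other 3 by Dixon's criterion. Chance flags about 1 in 20 groups of independent normal values. That rate is no measure for these 22, as each group mixes experiments A and B and the quantities share libraries. PHL1 stood at 74.3 CPM in high Pi -P A2, against 13.5 to 16.1 CPM in the other 3, and at 31.5 CPM in high Pi +Phi A1, against 12.0 to 13.0 CPM. PHR1 in high Pi -P A2 was 53.1 CPM, against 65.7 to 66.5 CPM, and the summed root hair level there was 92.7 CPM, against 153 to 159 CPM. The residual SD of log2 levels in high Pi +Phi A1 was 0.418, against 0.339 to 0.349.

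Replicate A2 at low Pi after +P had 195 CPM of IPS1 (15.2 to 45.3 CPM in the others), 3100.4 CPM of AT4 (997 to 1276), 328 CPM of PR1 (6.27 to 39.1) and a summed Casparian strip and suberin level of 386 CPM (264 to 282). Replicate A1 at high Pi after -P had 483 CPM of AT4 (92.8 to 120), 101 CPM of SPX1 (29.6 to 40.0), 17.9 CPM of PPsPase1 (1.36 to 2.41) and 28.8 CPM of CYP79F1 (1.91 to 3.52). PPsPase1 was also apart in A1 at high Pi after +P, at 22.7 CPM (1.84 to 5.11), and after +Phi, at 9.83 CPM (2.36 to 3.35). Replicate B1 at low Pi after +Phi was low, with 850 CPM of AT4 (938 to 950.2) and 224 CPM of SPX1 (313 to 320). IPS1 at high Pi in A2 was 27.5 CPM after +P (9.96 to 11.7) and 16.5 CPM after +Phi (6.47 to 7.90). MYB75 was 13.1 CPM in B1 at low Pi after +P (4.16 to 5.5) and 1.56 CPM in A2 at high Pi after +Phi (0 in the others), where CYP79F1 was 30.6 CPM (0.723 to 3.34).

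The Pi response differed between the experiments by the interaction test. As experiment B minus experiment A on the log2 scale, the response was greater in B for AT1G52120 (5.36), NAS1 (2.63), EXPB3 (2.16), AT1G21140 (1.7), RNEE/G (1.29), AT1G78915 (1.26), CcdA (1.01) and RBR1 (0.94). It was smaller in B for AT1G76740 (-2.28), NP3 (-1.95), AT2G20635 (-1.94), POK1 (-1.66), IRT3 (-1.61), AT2G36200 (-1.44), TK1a (-1.11) and ERS1 (-0.89). The response differed between pre-treatments for AT4G28140 (adjusted p = 0.0285) and ERF53 (adjusted p = 0.0373).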

How the results depend on the processing

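The count of 7942 genes was 7716 with the replicate block, 7997 with size factors, 8178 with DESeq2 and 8461 with limma-voom, and 4957 to 8197 without a replicate or a single library, lowest without replicate B1. With fewer libraries it was 2110 in experiment A alone, 6868 in B alone, 4129 after +P alone, 1400 after -P alone and 1031 after +Phi alone. The Pi response differed between pre-treatments for 2 genes, for 0 with a filter of 1 CPM (1184 at an unadjusted p under 0.05), for 0 with the replicate block (1028), and for 0 to 2 without a replicate. The 33 genes that differed between experiments were 45 without the 2 libraries in doubt and 0 to 21 without a replicate (at the 0 of B1, 873 genes had an unadjusted p under 0.05, and at that of B2, 1228). Against Col-0 the count of 10 was 9 with the replicate block and 3 to 7 without a replicate. Against phf1 without bacteria the count of 3338 was 3239 with the block and 793 to 4289 without a replicate. Against phr1 phl1 the count of 1825 was 1560 with the block and 318 to 1094 without a replicate.

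The sign turned for ERS2 after +Phi alone (0.0055), SMXL8 after -P alone (-0.36) and NCED3 after -P alone (-0.12), and the cause was not tested. Over named genes and lists, 12750 results under alternatives kept their direction and side of the threshold, 696 no longer passed, 196 newly passed and 297 counts moved. The depth of the shallowest library, 1.52 M counts, limits genes of a few CPM. Replicate numbers do not pair the libraries, so the replicate block compares names only.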
